A study of Xenopus laevis with 4 samples.

Results

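The genes described here are 10 regulators of mitosis and of the step from metaphase to anaphase: aurka, aurkb, plk1, ttk, bub1, bub1b, mad2l1, cdc20, fbxo5 and fbxo43. They were chosen by name, and every row of the deposited gene table that carries one of these symbols, with or without the ending .L or .S, was taken. This gave 16 of 49078 rows, and all 16 passed the filter on low counts, as did 26543 rows of the whole table. X. laevis is allotetraploid, and .L and .S mark the long and short chromosome of each pair of homeologs. Both homeologs were present for 6 of the genes, while plk1 and ttk were represented by the S copy and bub1 and bub1b by the L copy. The RefSeq gene list of X. laevis assembly 10.1 also names plk1.L and ttk.L, which are not analysed here.

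The material was whole Xenopus laevis embryos taken some 9 hours after fertilization, at the mid-blastula transition, when the embryo's own genome is first transcribed on a large scale. The EU-RNA group consists of 2 libraries of RNA captured from embryos that had received 10 nl of 50 mM 5-ethynyl uridine (EU) at the first cell stage. EU is a uridine analogue that enters RNA made after the injection, and RNA carrying it was tagged with biotin and pulled down on streptavidin. The series holds no library of a capture from embryos without EU. RNA that came through the capture without carrying EU therefore cannot be told apart from labelled RNA. The Normal group consists of 2 libraries of total RNA from embryos called normal in the extraction protocol, which holds maternal and newly made RNA together. No genotype, strain or clutch is given for either group, so replicates may be technical. The treatment label gives the EU injection for the Normal libraries too, while the extraction and library labels set normal embryos against injected ones, so whether the Normal embryos were injected is unclear. If they were not, the capture step and the injection cannot be told apart. Because whole embryos were used, fewer cells of a type and less RNA per cell cannot be told apart either.

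Entry into mitosis is driven by kinases of the Aurora and Polo families together with the cyclin-dependent kinases. The anaphase-promoting complex (APC/C), a ubiquitin ligase, then marks securin and cyclin B for destruction once its activator Cdc20 is released from the spindle checkpoint proteins. Emi1 (gene fbxo5) and Emi2 (gene fbxo43) are F-box proteins that inhibit the APC/C, Emi1 in interphase and Emi2 in the arrested egg. Early Xenopus embryos divide rapidly and synchronously on proteins and mRNA stored in the egg, and the cycles lengthen at the mid-blastula transition.

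The libraries held 47598265 to 209445802 estimated counts. Levels are given as CPM, counts divided by the TMM-scaled size of their library, which makes the average feature about equal between libraries. CPM is not corrected for transcript length, so levels are compared between libraries for 1 gene and not between genes. A log2 fold change is EU-RNA over Normal and gives a position relative to the average transcript, not an amount of new RNA. A check used 12 tested rows of genes known to be switched on by this stage (gs17, bix1.1, nodal5, nodal6, sia1, sia2 and foxi1). EU-RNA was higher in 8 of them (both copies of bix1.1 and foxi1, gs17.S, nodal5.L, nodal6.L and nodal6.S). The other 4 did not pass (gs17.L, sia1.L, sia1.S and sia2.S). The median log2 fold change of the 12 rows was 3.45. Among all features tested, edgeR called 4.69% higher. Without Normal replicate 1, foxi1.S and nodal6.S did not pass, and nodal6.S did not pass without Normal replicate 2 either. By limma-voom 6 of the 12 rows were higher, beside 4.25% of all features. Of the 12 rows, those that did not pass by limma-voom included nodal5.L and foxi1.S (limma adjusted p = 0.141 and 0.0838). Rows of the later tissue genes actc1, hba1, hbg1, myh6 and cryaa stayed at or below 1.45 CPM in each of the 4 libraries, and of these only actc1.L and myh6.S were tested, neither of which passed (adjusted p = 0.805 and 0.948 in edgeR). Replicates were less alike in EU-RNA than in Normal, with an SD of the log2 ratio between replicates of 0.90 and 0.46 over 12933 features.

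Of the 16 rows, fbxo5.L was higher in EU-RNA, aurka.S was lower, and 14 did not pass (edgeR quasi-likelihood test, Benjamini-Hochberg adjusted p below 0.05). Over all features tested, 4.69% were higher and 0.889% lower. The 1 of 16 rows called higher is close to that background, while 1 of 16 called lower is above it. A single row in each direction is too few to compare with these shares. At an unadjusted p below 0.05 the shares of all features were 12.3% higher and 12.3% lower, and 2 of the 16 rows were higher and 2 lower. The median log2 fold change of the 16 rows was -0.25, against 0.01 for all features, with 5 rows above 0 and 11 below. When libraries were scaled by total count alone, the median of the 16 rows was 0.02 and that of all features 0.28. Both EU-RNA libraries lay above both Normal libraries in 3 rows, and below them in 7. Among all features the same held for 26.4% and 30.6%. The 16 rows together held 0.0809% and 0.0962% of all counts in the EU-RNA libraries and 0.0717% and 0.0710% in the Normal libraries. On the TMM-scaled CPM, their sums were 771 and 845 in EU-RNA and 768 and 795 in Normal, and the groups overlapped.

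**Figure D1:**
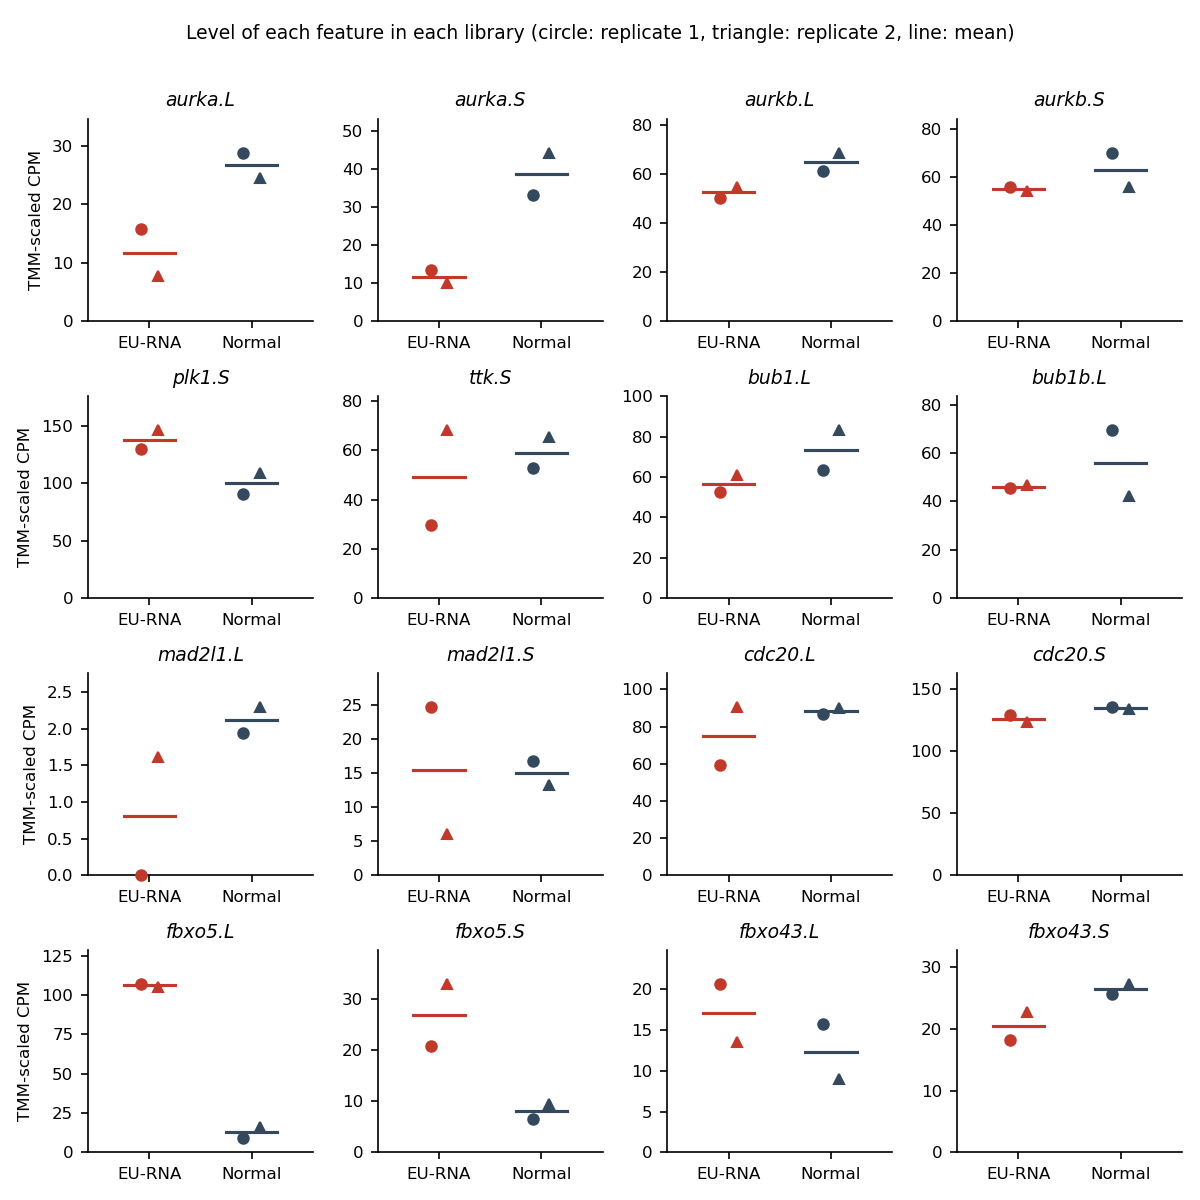
TMM-scaled CPM of the 16 rows in each library, with a panel and a linear axis from 0 for each row; circles are replicate 1, triangles replicate 2 and lines the mean of 2 libraries. The EU-RNA libraries of fbxo5.L sit at 107 and 105 CPM against 9.25 and 16.3 in Normal, while those of aurka.S sit at 13.3 and 10.1 against 33.1 and 44.3.

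The inhibitor gene fbxo5 had the largest log2 fold change of the 10 genes. fbxo5.L stood at 107 CPM in EU-RNA replicate 1 and 105 CPM in replicate 2, and at 9.25 and 16.3 CPM in Normal replicates 1 and 2. The EU-RNA libraries were nearly equal, and the groups did not overlap. The means were 106 ± 1.28 CPM and 12.8 ± 4.97 CPM (SD, n = 2), which gives a log2 fold change of 3.05 (SE 0.33, 95% interval 2.24 to 3.86, adjusted p = 0.00684 in edgeR). This is an 8.28-fold difference, and 91.6% of tested features had a smaller log2 fold change. The call held under all 11 alternative settings, with log2 fold changes from 2.71 to 3.52.

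The S copy pointed the same way but did not pass. fbxo5.S was at 20.9 and 32.9 CPM in the EU-RNA libraries and at 6.59 and 9.45 CPM in the Normal libraries. Again both EU-RNA libraries were above both Normal libraries. The log2 fold change was 1.74 (SE 0.45, 95% interval 0.66 to 2.83, adjusted p = 0.0895 in edgeR). The row passed by DESeq2 (adjusted p = 0.00679), without a filter (adjusted p = 0.00913 in edgeR), with the replicate number as a block (adjusted p = 0.0498 in edgeR), and without EU-RNA replicate 1 or replicate 2 (edgeR adjusted p = 4.57e-06 and 0.0190). A fit without an EU-RNA library assumes that the remaining one varies like the Normal libraries. Such fits called 10.4% and 14.9% of all tested features higher and 10.1% and 17% lower, so far more than with all libraries. DESeq2 called 11.7% of all features higher, the fit without a filter 7.09% and the fit with the block 6.74%.

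With the counts of both homeologs added, which does not depend on how reads were divided between the copies, fbxo5 was at 127 and 137 CPM in EU-RNA and at 15.95 and 26.0 CPM in Normal. The summed log2 fold change was 2.65 (SE 0.29, 95% interval 1.94 to 3.36, adjusted p = 0.00634 in edgeR). Among all symbols tested in this summed form, 4.7% were higher and 1.07% lower. Of the 10 summed genes, fbxo5 was higher, aurka was lower and the other 8 did not pass.

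The related inhibitor gene fbxo43, whose product Emi2 holds the unfertilized Xenopus egg in metaphase of meiosis II, gave no called row. fbxo43.L was at 20.6 and 13.5 CPM in EU-RNA and 15.7 and 8.99 CPM in Normal, and the groups overlapped. Its log2 fold change was 0.47 (SE 0.50, adjusted p = 0.668 in edgeR). It was 0.064 without EU-RNA replicate 1 and 0.93 without Normal replicate 1. fbxo43.S was at 18.2 and 22.8 CPM against 25.7 and 27.3 CPM, with a log2 fold change of -0.37 (SE 0.32, 95% interval -1.15 to 0.41, adjusted p = 0.572 in edgeR). Summed over homeologs, fbxo43 had a log2 fold change of -0.07 (SE 0.25, 95% interval -0.68 to 0.53).

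The ratio of fbxo5 to fbxo43 counts within a library does not depend on library scaling. It was 3.29 and 3.81 in the EU-RNA libraries and 0.383 and 0.710 in the Normal libraries. The groups did not overlap, but an exact permutation test of 2 libraries against 2 cannot go below p = 0.333, two-sided, and gave p = 0.333 (adjusted 0.5 over 3 such ratios). These are ratios of counts without correction for length, so their size says nothing on which transcript was more abundant.

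**Figure D2:**
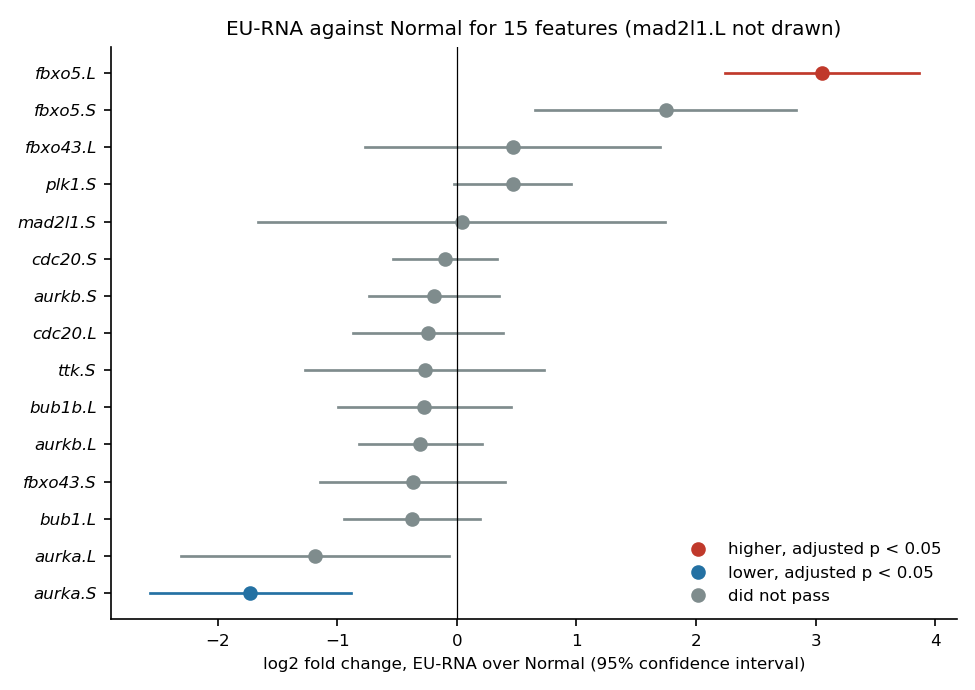
Log2 fold change, EU-RNA over Normal, with its 95% interval for 15 rows, ordered by size; red marks the row called higher, blue the row called lower and grey rows that did not pass. mad2l1.L is left out because its interval runs from -7.74 to 4.96. fbxo5.L at 3.05 and aurka.S at -1.73 lie at the ends.

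Aurora A, the kinase of centrosomes and spindle poles that was first described in Xenopus as Eg2, gave the row called lower. aurka.S was at 13.3 and 10.1 CPM in EU-RNA and at 33.1 and 44.3 CPM in Normal. Both EU-RNA libraries were far below both Normal libraries. The means were 11.7 ± 2.27 CPM and 38.7 ± 7.92 CPM (SD, n = 2), which gives a log2 fold change of -1.73 (SE 0.34, 95% interval -2.57 to -0.88, adjusted p = 0.0456 in edgeR), which is 3.31-fold lower. The call was lost when libraries were scaled by total count alone (log2 fold change -1.47, adjusted p = 0.0581 in edgeR). It was also lost without Normal replicate 1 (log2 fold change -1.92) and without Normal replicate 2 (-1.497). Any fit without a Normal library takes its spread from the EU-RNA replicates alone, which were less alike than the Normal replicates. Compared with the fit of all libraries, the log2 fold change was larger in size without Normal replicate 1 and smaller without Normal replicate 2. Why the calls were lost was not tested.

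aurka.L was at 15.7 and 7.72 CPM in EU-RNA and at 28.9 and 24.5 CPM in Normal. The groups did not overlap, but the EU-RNA libraries differed from each other by 0.98 on the log2 scale. The log2 fold change was -1.19 (SE 0.46, 95% interval -2.31 to -0.07, adjusted p = 0.179 in edgeR). Without EU-RNA replicate 1 it was -1.85 and passed, in a fit that called far more features lower than with all libraries. Summed over homeologs, aurka was at 28.7 and 17.6 CPM against 62.3 and 69.5 CPM and was lower by a log2 fold change of -1.51 (SE 0.31, adjusted p = 0.0465 in edgeR). That call was lost when libraries were scaled by total count alone (adjusted p = 0.0581) and without Normal replicate 2 (adjusted p = 0.0647).

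Aurora B, the kinase of the chromosomal passenger complex, gave no called row. aurkb.L was at 50.1 and 54.7 CPM in EU-RNA and at 61.0 and 68.6 CPM in Normal, and aurkb.S at 56.0 and 54.2 CPM against 70.3 and 55.8 CPM. Both EU-RNA libraries of aurkb.L lay slightly below the Normal libraries, while the groups of aurkb.S overlapped. The log2 fold changes were -0.31 (95% interval -0.82 to 0.21) and -0.19 (95% interval -0.74 to 0.35), with edgeR adjusted p = 0.458 and 0.690. Scaled by total count alone, aurkb.S was at 0.062. The ratio of aurkb to aurka counts, summed over homeologs, was 3.66 and 6.12 in EU-RNA and 2.12 and 1.81 in Normal. These groups did not overlap (exact permutation test, two-sided p = 0.333, the smallest possible, adjusted 0.5).

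Plk1 promotes mitotic entry, centrosome maturation and the destruction of Emi1. plk1.S was at 129 and 146 CPM in EU-RNA and at 90.4 and 109 CPM in Normal. Both EU-RNA libraries were above both Normal libraries. The log2 fold change was 0.47 (SE 0.20, 95% interval -0.02 to 0.96, adjusted p = 0.223 in edgeR), and no alternative to this fit called the row. In the summed table, where plk1 consists of the same S row and other genes are merged, it passed without EU-RNA replicate 1 (log2 fold change 0.49, adjusted p = 0.0416), where 10.2% of all symbols were higher.

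Ttk, also called Mps1, is the kinase that starts spindle checkpoint signalling at the kinetochore. ttk.S was at 29.6 and 68.3 CPM in EU-RNA and at 52.7 and 65.3 CPM in Normal. EU-RNA replicate 2 was the highest of the 4 libraries and EU-RNA replicate 1 the lowest. The log2 fold change was -0.27 (SE 0.41, adjusted p = 0.775 in edgeR). Without EU-RNA replicate 2 it was -1.04 and passed, in a fit that called far more features lower than with all libraries. Without EU-RNA replicate 1 it was 0.16.

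The checkpoint genes bub1, bub1b and mad2l1 encode proteins that hold back Cdc20 while chromosomes are unattached. bub1.L was at 52.4 and 61.0 CPM in EU-RNA and at 63.6 and 83.4 CPM in Normal, a log2 fold change of -0.38 (95% interval -0.95 to 0.20, adjusted p = 0.410 in edgeR). In the summed table bub1 passed without EU-RNA replicate 2 (-0.56, adjusted p = 0.0498), where 16.5% of all symbols were lower. bub1b.L, which encodes BubR1, was at 45.3 and 46.9 CPM against 69.6 and 42.1 CPM, with a log2 fold change of -0.27 (95% interval -1.00 to 0.45, adjusted p = 0.669 in edgeR). Its groups overlapped, and the value was 0.14 without Normal replicate 1. The ratio of bub1 to bub1b counts was 1.16 and 1.299 in EU-RNA and 0.915 and 1.98 in Normal, with overlap (exact permutation test, two-sided p = 1).

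mad2l1 encodes Mad2, which binds Cdc20 directly, and its rows showed the widest spread between EU-RNA replicates. mad2l1.S was at 24.7 CPM in EU-RNA replicate 1 and 6.11 CPM in replicate 2, while the Normal libraries held 16.7 and 13.3 CPM. The Normal values lay between the EU-RNA values. Its log2 fold change was 0.040 (SE 0.70, adjusted p = 0.984 in edgeR). Without EU-RNA replicate 1 it was -1.35 and passed, the opposite direction, in a fit that called far more features lower than with all libraries. Without EU-RNA replicate 2 it was 0.67.

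mad2l1.L had 0 counts in EU-RNA replicate 1, which allows up to 0.0352 CPM for counting error alone, and 1.61 CPM in EU-RNA replicate 2. Normal libraries held 1.94 and 2.30 CPM. The row was the rarest of the 16 in counts. The fitted log2 fold change of -1.39 has an SE of 2.60 and did not pass (adjusted p = 0.821 in edgeR). Without EU-RNA replicate 2 the row passed with a log2 fold change of -10.83, a value that rests on the library with 0 counts. Summed over homeologs, mad2l1 was at 24.5 and 7.65 CPM against 18.8 and 15.7 CPM, with a log2 fold change of -0.10 (SE 0.61). Without EU-RNA replicate 1 the sum was at -1.22 and passed (adjusted p = 0.0488), as did 9.98% of all symbols in that direction.

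Cdc20, known in Xenopus as Fizzy, is the mitotic activator of the APC/C and the target of the checkpoint. cdc20.L was at 59.1 and 90.6 CPM in EU-RNA and at 86.8 and 90.0 CPM in Normal. EU-RNA replicate 1 stood below the other 3 libraries. The log2 fold change was -0.24 (95% interval -0.87 to 0.39, adjusted p = 0.666 in edgeR). Without EU-RNA replicate 2 it was -0.63 and passed, in a fit that called far more features lower than with all libraries. cdc20.S was at 129 and 123 CPM against 136 and 134 CPM. Its log2 fold change of -0.10 had the narrowest standard error of the 16 rows (SE 0.18, 95% interval -0.53 to 0.34, adjusted p = 0.816 in edgeR). Scaled by total count alone, cdc20.L and cdc20.S were at 0.033 and 0.16.

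**Figure D3:**
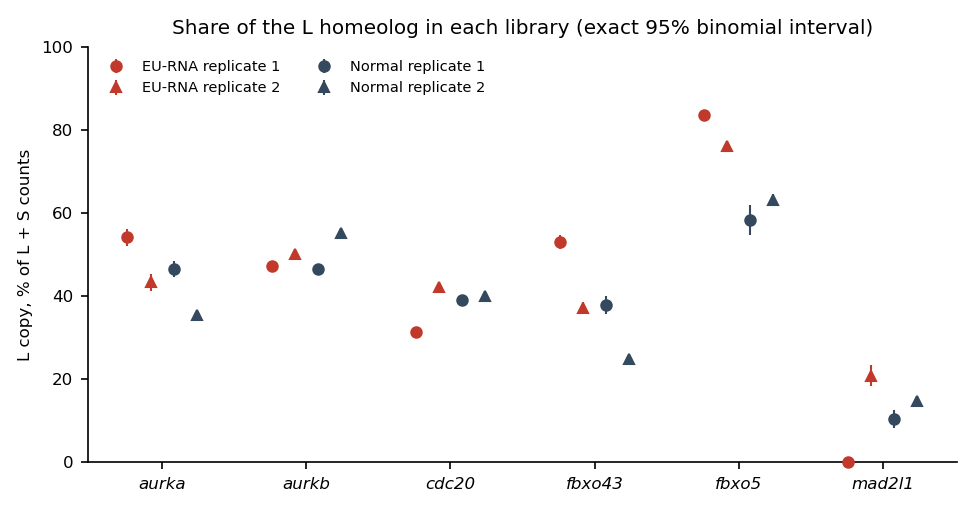
Share of the L copy in the summed L and S counts of each gene with both copies, in percent, for each library; bars are exact binomial 95% intervals, which cover counting error only. For fbxo5 the shares in EU-RNA (83.7% and 76.1%) lie above those in Normal (58.4% and 63.3%).

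Whether the homeologs of a gene differed in their EU-RNA to Normal ratio was tested in 1 model over 4523 pairs. Of these pairs, 0.155% passed in either direction. None of the 6 gene pairs passed (edgeR), and 1, fbxo5, had an unadjusted p below 0.05, as had 15.6% of all pairs. limma on log ratios also passed none of the 6. The L copy of fbxo5 supplied 83.7% (exact 95% interval 83.0 to 84.4) and 76.1% (75.5 to 76.8) of the gene's counts in EU-RNA. In Normal it supplied 58.4% (54.6 to 62.1) and 63.3% (61.9 to 64.6). The groups did not overlap. The difference in the log2 ratio of L to S was 1.38 (SE 0.40, 95% interval 0.35 to 2.41, adjusted p = 0.214 in edgeR). Without EU-RNA replicate 2 it was 1.72 (adjusted p = 0.0468), in a fit that passed 15.2% of all pairs.

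For aurka the L share was 54.2% and 43.4% in EU-RNA and 46.6% and 35.6% in Normal, and for fbxo43 it was 53.0% and 37.2% against 37.8% and 24.8%. In both genes the ranges of the groups overlapped. The differences in log2 ratio were 0.45 (95% interval -1.11 to 2.02) and 0.87 (95% interval -0.96 to 2.70). For aurkb and cdc20 they were -0.12 (95% interval -0.91 to 0.66) and -0.17 (95% interval -0.94 to 0.59). The interval of mad2l1 ran from -15.61 to 8.84. Its L share was 0% and 20.9% in the EU-RNA libraries and 10.4% and 14.8% in the Normal libraries. With EU-RNA replicates this far apart, the copies of mad2l1 could not be compared. Without EU-RNA replicate 2, mad2l1 passed in the same fit (-11.70, adjusted p = 0.0106), a value that rests on the library with 0 counts of mad2l1.L. Reads shared by near-identical homeologs can be divided wrongly between them, which touches each value of a single copy.

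**Figure D4:**
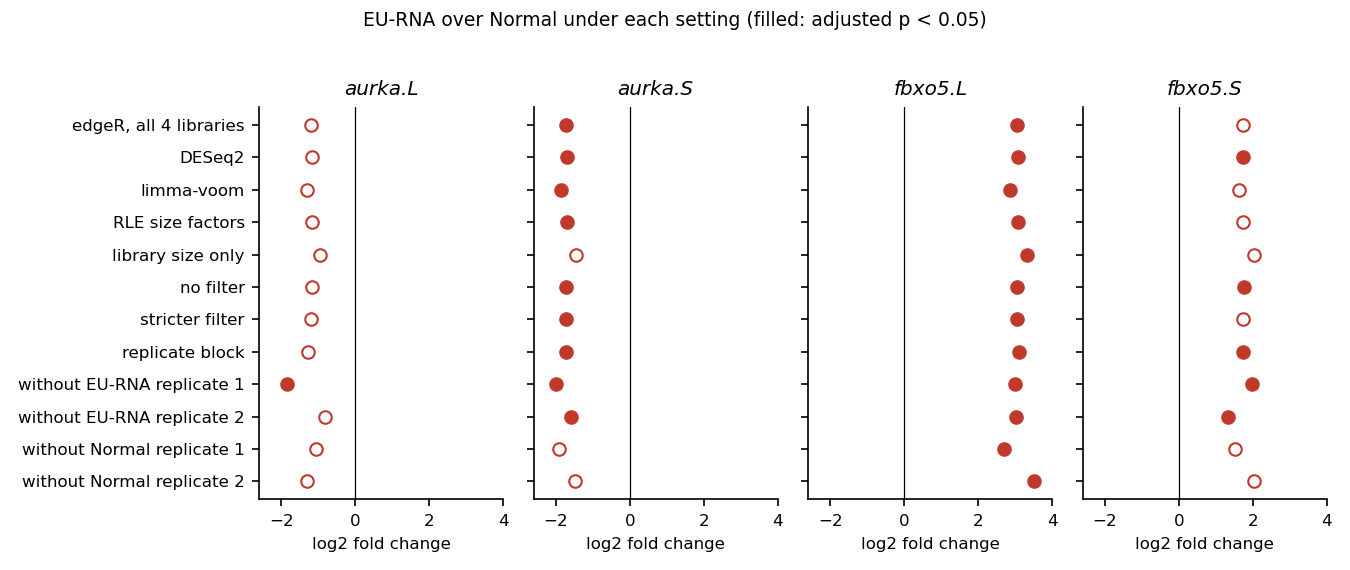
Log2 fold change, EU-RNA over Normal, of the homeologs of aurka and fbxo5 under the edgeR fit with all 4 libraries and 11 alternative settings; filled points have an adjusted p below 0.05. fbxo5.L is filled in each setting, while aurka.S is open with scaling by library size only and without either Normal library.

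The genes that act beside these regulators were mostly not called by edgeR, as was the case for 25061 of all 26543 features tested. Among the subunits of the APC/C, its activator fzr1 and its E2 enzymes, 23 rows were tested. None passed in either direction by edgeR, where 4.69% of all features were higher and 0.889% lower. The median log2 fold change of the 23 rows was -0.52. At an unadjusted p below 0.05, 0 were higher and 4 lower, beside 12.3% of all features in each direction. DESeq2 called 4 lower and 0 higher, against 7.36% lower and 11.7% higher among all features by that tool, and limma-voom called none, against 1.45% lower and 4.25% higher. The smallest p belonged to anapc15.S, which encodes an APC/C subunit (-1.44, SE 0.34, adjusted p = 0.0738 in edgeR), and to ube2s.S, the gene of the E2 enzyme that extends ubiquitin chains (-1.20, SE 0.35, adjusted p = 0.119).

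The partners of Aurora B in the chromosomal passenger complex are INCENP, Survivin (birc5) and Borealin (cdca8 and its Xenopus relative cdca9). Of 9 tested rows edgeR called 1 lower and 0 higher, leaving 8, beside 0.889% lower and 4.69% higher among all features. The median of the 9 rows was -1.04. cdca8.S was at 13.7 and 15.9 CPM in EU-RNA and at 45.8 and 54.4 CPM in Normal, well apart. Its log2 fold change was -1.76 (SE 0.28, adjusted p = 0.0216 in edgeR), and without Normal replicate 2 it did not pass (-1.63, adjusted p = 0.0950). birc5.2.S was next (-1.19, SE 0.27, adjusted p = 0.0635). DESeq2 called 0 of the 9 rows higher and 4 lower, beside 11.7% and 7.36% of all features. By limma-voom 0 and 1 were called, beside 4.25% and 1.45%. An unadjusted p below 0.05 gave 0 and 5, where 12.3% of all features fell on each side.

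Of 18 tested rows of kinetochore and checkpoint partners, none passed by edgeR, and the median was -0.70. Among all features, edgeR called 4.69% higher and 0.889% lower. DESeq2 called 2 of the 18 rows lower and limma-voom none, against 7.36% and 1.45% of all features by those tools. Neither tool called a row higher, against 11.7% and 4.25%. At an unadjusted p below 0.05, 1 row was higher and 4 lower, against 12.3% of all features each way. zw10.L, which encodes a kinetochore protein that recruits dynein (-2.49, SE 0.61, adjusted p = 0.0821 in edgeR), and trip13.L, the gene of an ATPase that remodels Mad2 (-1.81, SE 0.68, adjusted p = 0.169), had the smallest p.

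Among activators, partners and relatives of Aurora A and Plk1, 16 rows were tested, with a median of -0.20. By edgeR 3 were higher and 0 lower, beside 4.69% and 0.889% of all features. All 3 were polo-like kinase genes other than plk1. plk2.L was at 64.2 and 41.8 CPM in EU-RNA and at 10.9 and 9.27 CPM in Normal (log2 fold change 2.40, SE 0.34, adjusted p = 0.0149 in edgeR). plk2.S was at 30.3 and 44.4 CPM against 5.29 and 3.26 CPM (3.13, SE 0.45, adjusted p = 0.0160). plk3.L was at 259 and 208 CPM against 122 and 106 CPM (1.03, SE 0.21, adjusted p = 0.0465). In each of these rows both EU-RNA libraries exceeded both Normal libraries, as in 26.4% of all features. The rows were picked by their call in these libraries, so this adds no support.

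The plk3.L call was lost with DESeq2-type size factors in edgeR (adjusted p = 0.0546), without Normal replicate 1 (0.0988) and without Normal replicate 2 (0.205). Some partners were chosen after their values were seen. The Aurora A activator gene tpx2 had both copies below Normal, with tpx2.L at 124 and 133 CPM against 206 and 207 CPM (log2 fold change -0.68, adjusted p = 0.0946 in edgeR) and tpx2.S at -0.89 (adjusted p = 0.111). btrc, the gene of the ubiquitin ligase subunit that recognises Emi1, had log2 fold changes of -0.31 for btrc.L and -0.40 for btrc.S, and neither passed (adjusted p = 0.398 and 0.556). In this list DESeq2 called 4 rows higher and 2 lower, beside 11.7% and 7.36% of all features. By limma-voom 3 were higher and 2 lower, beside 4.25% and 1.45%. At an unadjusted p below 0.05 in edgeR, 4 rows were higher and 2 lower, beside 12.3% of all features each way.

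Of 23 tested rows of separase and cohesin genes, edgeR called 2 higher and 0 lower, beside 4.69% and 0.889% of all features. The median of the 23 rows was -0.27. rad21.L, the gene of the cohesin subunit that separase cuts, was at 516 and 458 CPM in EU-RNA and at 189 and 238 CPM in Normal (log2 fold change 1.19, SE 0.21, adjusted p = 0.0311 in edgeR). cdca5.S, which encodes sororin, a cohesin stabiliser, was at 47.4 and 41.8 CPM against 10.0 and 14.8 CPM (1.84, SE 0.33, adjusted p = 0.0314). Neither passed without Normal replicate 1 (adjusted p = 0.212 and 0.104). DESeq2 called 2 of the 23 rows higher and 6 lower, beside 11.7% and 7.36% of all features. By limma-voom 2 were higher and 3 lower, beside 4.25% and 1.45%. At an unadjusted p below 0.05 in edgeR, 3 rows were higher and 6 lower, beside 12.3% of all features each way.

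The list of the Greatwall kinase module and mitotic exit phosphatases had 20 tested rows, with a median of -0.13. By edgeR 2 were higher and 0 lower, beside 4.69% and 0.889% of all features. cdc14b.S, a phosphatase gene, was at 235 and 198 CPM against 93.1 and 109 CPM (1.101, SE 0.20, adjusted p = 0.0347 in edgeR). ppp2r2c.L, which encodes a B-type regulatory subunit of protein phosphatase 2A, was at 23.7 and 14.0 CPM against 1.78 and 1.78 CPM (3.404, SE 0.63, adjusted p = 0.0353). Both calls were lost without Normal replicate 1 (adjusted p = 0.209 and 0.0636), and that of ppp2r2c.L also by limma-voom (limma adjusted p = 0.0775). DESeq2 called 4 of the 20 rows higher and 3 lower, beside 11.7% and 7.36% of all features. By limma-voom 1 was higher and 0 lower, beside 4.25% and 1.45%. At an unadjusted p below 0.05 in edgeR, 4 rows were higher and 4 lower, beside 12.3% of all features each way.

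**Figure D5:**
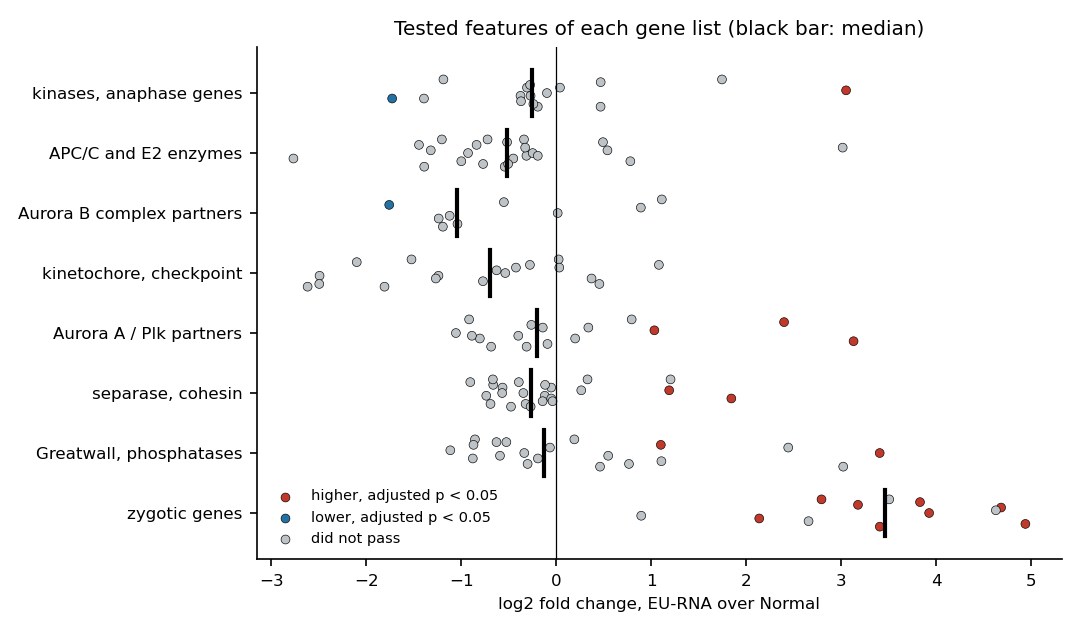
Log2 fold change, EU-RNA over Normal, of each tested row in the 16 rows of the 10 genes, in 6 lists of genes that act with them and in the list of zygotic genes; black bars are medians, red points rows called higher, blue points rows called lower. The medians of the mitotic lists lie between -1.04 and -0.13, and that of the zygotic genes at 3.45.

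The pattern of fbxo5.L over the 4 libraries, as log2(CPM + 1) centred on its mean, was closest to those of p2ry6.S (Euclidean distance 0.098), amy2a.L (0.15) and cyb561.L (0.22) among tested features with a gene symbol. Their log2 fold changes were 3.37, 5.05 and 2.95, with edgeR adjusted p of 0.0172, 0.187 and 0.00408. The features closest to aurka.S were ccdc169.S (0.12), snx5.L (0.15) and arl8b.L (0.18), with log2 fold changes of -3.26, -1.88 and -1.69, and none of them passed (adjusted p = 0.377, 0.134 and 0.118 in edgeR). At low levels the added 1 weighs on the pattern. ccdc169.S was at 0.58 and 0.08 CPM in EU-RNA and 2.57 and 3.73 CPM in Normal. amy2a.L was at 8.35 and 8.25 CPM in EU-RNA and 0 and 0.48 CPM in Normal. With 4 libraries, such closeness is a description of these libraries alone.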

How the data were processed

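RNA-seq libraries of X. laevis embryos were compared, 2 of captured EU-RNA and 2 of total RNA. The authors deposited 1 table, which holds whole-number estimated counts for each gene, 1 column a library. Salmon 0.12.0 and bcl2fastq are listed in the submitters' processing notes, and the table's name refers to tximport. The transcript set, the genome build, the use of strand and any scaling by transcript length are not given in the sources used here. Both library kinds were prepared with a kit for fixed human tissue, per the labels' protocols.

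Estimated counts were taken as whole numbers and tested with edgeR 4.0.16 in R 4.3.3 (quasi-likelihood F-test, TMM, default filterByExpr, group as the only term, Benjamini-Hochberg adjustment over all features tested, threshold 0.05). SE is the log2 fold change over the square root of F. The same fit was made after adding homeologs by symbol, and a further fit compared L and S counts within libraries with library as a term. Alternatives were DESeq2 1.42.0, limma-voom 3.58.1, other size factors, other filters (none, or a mean of at least 1 CPM), the replicate number as a block, and each library left out. The pair fit was also made by limma on log2 ratios with 0.5 added to counts. A count of 0 allows up to 3 counts. Symbols were matched to RefSeq for names only, with 16 of 16 rows found.

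The 10 genes, the other gene lists and the tests were chosen with earlier results of these data known. All rows of the 10 genes are named. From each other list every called row is named, and the 2 rows of smallest p where fewer than 2 were called.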

Additional observations from a re-analysis of the deposited data

How the results depend on the processing

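The edgeR fit over rows called 1246 features higher and 236 lower. The higher count was 2990 by DESeq2 and 2488 without a filter, and the lower count was 1879 by DESeq2, 385 by limma-voom, 142 with scaling by library size only, 1134 without a filter and 680 with the replicate block. With a library left out they ran from 1197 to 4577 and from 151 to 5218. Of the 16 rows, 1 was higher and 1 lower. DESeq2, no filter and the replicate block each called 2 higher (fbxo5.L and fbxo5.S), and scaling by library size only called 0 lower, with 1 at an unadjusted p below 0.05. Leaving out a library gave 1 to 2 higher and 0 to 4 lower. mad2l1.S was reversed without EU-RNA replicate 1, and its log2 fold change ran from -1.35 to 0.67 over left-out libraries.

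With homeologs summed, 1034 symbols were higher and 235 lower. The higher count was 2573 by DESeq2, 2103 without a filter and 1618 with the replicate block. The lower count was 1680 by DESeq2, 452 by limma-voom, 125 with scaling by library size only, 1042 without a filter and 798 with the replicate block. Left-out libraries gave 1013 to 3716 and 152 to 4249. Of the 10 summed genes, scaling by library size only called 0 lower, and left-out libraries gave 1 to 2 higher and 0 to 3 lower. Homeolog pairs that differed numbered 7 in all, against 22 without a filter, 17 with the stricter filter, 26 by limma on log ratios, 19 by limma with the replicate block and 0 to 744 with a library left out. For the 6 gene pairs the last range was 0 to 2.

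The replicate numbers are shared by the groups only as numbers. Differences between replicates 1 and 2 correlated across features with r = -0.02 between the groups, so the block is no pairing that the data show. Apart from fbxo5.S, it changed the call of no row of the 10 genes. Scaling by library size only shifts the median of all features by 0.27 on the log2 scale. Normal replicate 1, at 47598265 counts, sets the lowest depth. The cause of the changes was not tested.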

Other observations

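Among genes of the other mitotic lists, some homeologs stood on opposite sides of 0. These genes were chosen after their values were seen. For mastl, which encodes Greatwall, the kinase that restrains protein phosphatase 2A in mitosis, mastl.L was at 79.8 and 89.7 CPM in EU-RNA and 140 and 122 CPM in Normal, a log2 fold change of -0.63 (edgeR adjusted p = 0.139). mastl.S was at 93.3 and 69.2 CPM against 33.9 and 41.5 CPM, a log2 fold change of 1.11 (adjusted p = 0.0676). Neither copy passed. Both EU-RNA libraries lay below both Normal libraries for mastl.L, as in 30.6% of all features, and above them for mastl.S, as in 26.4%. The gene was picked by its values in these libraries, so this adds no support. The difference between the copies was -1.73 (SE 0.33, 95% interval -2.58 to -0.87) and did not pass over all pairs (edgeR adjusted p = 0.139).

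For birc5.2, a Survivin gene, birc5.2.L was at 0.89 and birc5.2.S at -1.19 on the log2 scale. The difference between the copies was 2.12 (SE 0.43, 95% interval 1.02 to 3.22, edgeR adjusted p = 0.151). Of 37 pairs in these lists, 7 had an unadjusted p below 0.05 and 0 passed by edgeR, beside 15.6% and 0.155% of all pairs.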
